A study of Rattus norvegicus with 12 samples.

Results

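The interferon-stimulated genes are the genes that a cell switches on after an interferon binds its receptors, and they were followed here in kidneys of rats with 2 kinds of renal fibrosis. The set was fixed by name as 48 symbols: the 4 chains of the type I and type II interferon receptors, the transcription factors that carry the signal, and their antiviral, ubiquitin-like, GTP-binding and antigen-processing targets. Of these, 47 had a single entry in each of the 2 deposited expression tables, which held 22132 and 32623 entries, and Oas1b was found in neither. Kidney RNA came from wild-type male Sprague-Dawley rats that were bought at 8 weeks of age, 3 rats a group. Rats of the adenine group received a daily gavage of 220 mg/kg adenine, a purine that in excess forms crystals in renal tubules, over 3 weeks, and control rats received saline over the same time. In the UUO (unilateral ureteral obstruction) group the left ureter had been ligated, and in the sham group the same operation was done without ligation, with kidneys taken after 2 weeks. A UUO rat keeps a working kidney on the other side, whereas adenine reaches both kidneys.

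Type I interferons signal through Ifnar1 and Ifnar2, whose kinases activate transcription factors such as Stat2, which joins Irf9 to bind the interferon-stimulated response element. Interferon gamma signals through Ifngr1 and Ifngr2 to genes that carry the gamma-activated site. Irf7 amplifies the type I response, while Irf1 and Irf8 serve the gamma arm and the development of myeloid cells.

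The values are FPKM, fragments scaled by transcript length and by all mapped fragments, with no read counts behind them, so the depth of each rat is unknown and precision rests on the spread among 3 rats. FPKM summed to between 468389 and 630244 per rat, and FPKM correlated between rats of a group with r from 0.952 to 0.971 across genes on the log2 scale. Each table was fitted alone by limma on log2(FPKM + 0.1) for genes that reached 0.5 FPKM in 3 or more of 6 rats, and adjusted p-values are Benjamini-Hochberg values over all tested genes of the table. A differentially expressed gene (DEG) was one whose adjusted p was under 0.05 and whose log2 fold change was 2 or more in size. These log2 fold changes understate the change of genes with low FPKM. The whole distribution was shifted as well: over all tested genes the median log2 fold change was 0.30 after adenine and 0.62 after UUO, and median-of-ratios scaling, which divides each rat by its median ratio to the average rat, brought these to 0.014 and 0.020. For the interferon genes, rat 3 of the adenine group and rat 3 of the UUO group stood apart from the other rats of their groups, and the results that rest on them are given with and without them.

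In the adenine model, 31 of the 46 tested interferon genes rose, 1 fell and 14 did not pass the test. Among all tested genes 39.6% passed as higher and 19.9% as lower. The receptors, Irf1, Irf8, the Oas genes, Usp18, the GTP-binding proteins, Parp14, Dtx3l, the immunoproteasome and Tap1 were among those that rose, and Ifit1 was the gene that fell. As DEGs, 14 members were higher (10.7% of all tested genes) and Ifit1 was lower (5.03% of all tested genes). The median log2 fold change of the members was 1.52, or 1.23 with median-of-ratios scaling. The groups did not overlap for 35 members, where 68.0% of all tested genes had groups that did not overlap. Of these members, Ifit1 reached the FPKM minimum only through the control rats and Oas2 only through the adenine rats. For both genes the lack of overlap follows from the filter. Oas3, with FPKM under 0.5 in 4 of 6 rats, was not tested. In bulk kidney tissue, more cells of a type and more RNA per cell cannot be told apart.

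In the UUO model, 46 of the 47 tested members rose and Ifit1 fell. Among all tested genes 56.1% passed as higher and 14.4% as lower. As DEGs, 42 members were higher, against 13.2% of all tested genes, and Ifit1 was lower, against 4.21%. Their median log2 fold change was 3.37, or 2.78 with median-of-ratios scaling. In all 47 the 3 UUO rats lay on one side of the 3 sham rats, which held for 75.7% of all tested genes. Oas3 and Gbp4 reached the FPKM minimum only through the UUO rats, and Ifit1 only through the sham rats. For these genes the lack of overlap follows from the filter. The median of the members' mean FPKM was 4.86 in sham and 54.9 in UUO kidneys, and 4.29 in control and 12.8 in adenine kidneys. The heat map of all members shows the rise in both models and the unequal height of the columns within the adenine and UUO groups.

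**Figure D1:**
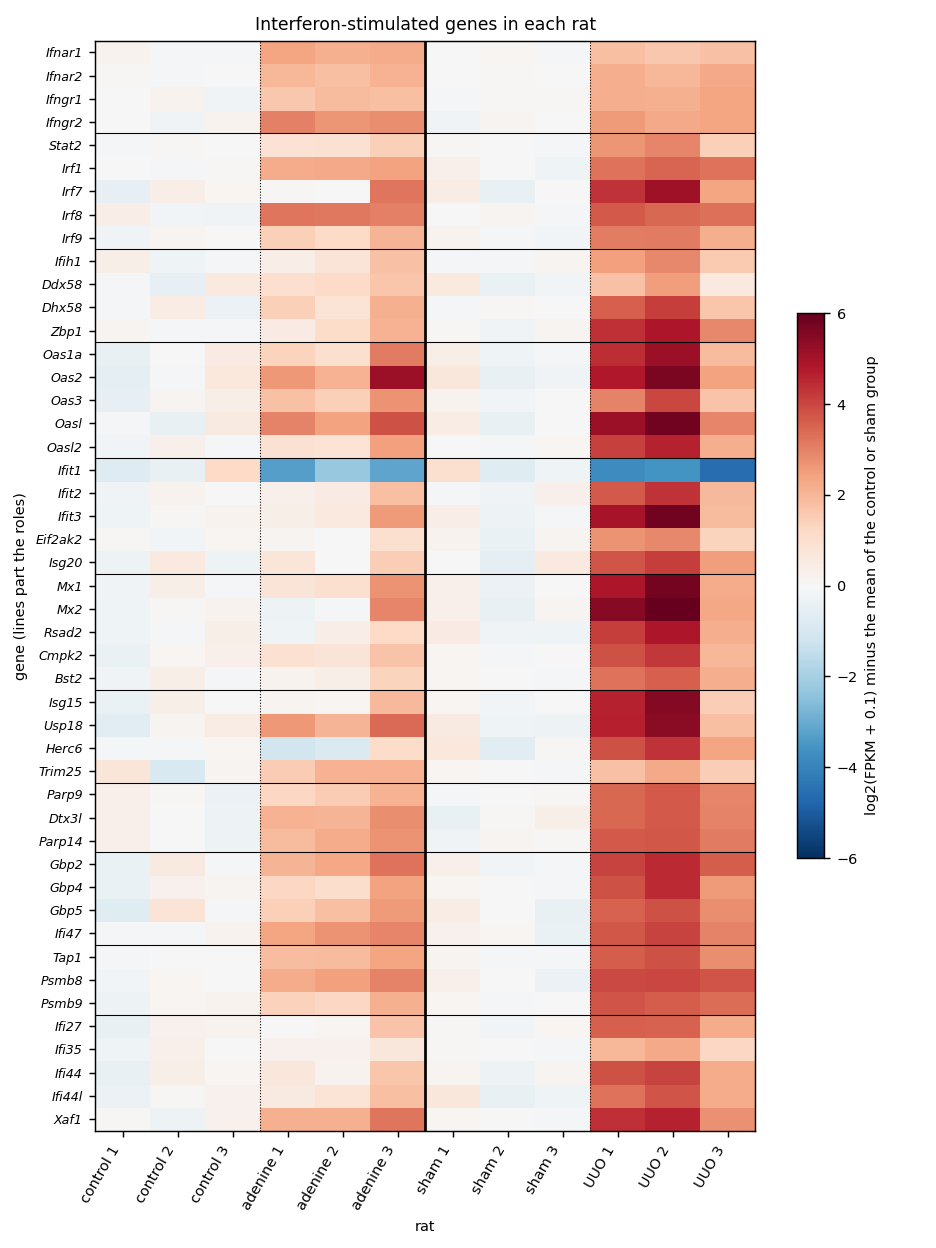
Heat map of log2(FPKM + 0.1) of 47 interferon-stimulated genes in 12 rats, each gene centred on the mean of its control or sham group, with lines between the roles. Of the tested members, adenine rat 3 was the highest of its group in 41 of 46 and UUO rat 3 the lowest of its group in 43 of 47, and Ifit1 is the member lower in all 6 diseased rats.

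Promoter letters of the members were looked up as well. The members were chosen as targets of interferon, which acts through the response element and the gamma-activated site. A high share of these letters follows in part from that choice and is no result about these kidneys. RefSeq promoters on GRCr8, from 250 bases before to 50 after each gene's start, were matched by symbol for 39 of the 48 members, and Isg15, Mx2, Ifit1, Ifit2, Oas2, Usp18, Ddx58, Dhx58 and Zbp1 had no entry. The core of the interferon-stimulated response element, GAAA and GAAA with 2 bases of any kind between them, was searched on both strands, so that it reads TTTC and TTTC on the other, and was present in 22 of the 39 (56.4%), compared with 3.92% of 33469 rat promoters of the same length. TTCNNNGAA, the core of the gamma-activated site, which reads the same on both strands, was present in 11 of the 39 (28.2%), compared with 8.87% of all promoters. A match is a description of these letters and not a bound site. The printed stretches are those of members whose levels are described next, with the matches of the response element core in capitals, written 5′ to 3′ along the gene's own strand. In Oas1a and Bst2 a pair of matches overlap, and the first match starts 41 bases before the start of Oas1a, 44 before that of Ifit3 and 31 before that of Gbp2.
Oas1a (GRCr8 chr12:41330403-41330462, + strand): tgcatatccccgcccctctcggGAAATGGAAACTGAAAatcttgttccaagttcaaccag
Bst2 (GRCr8 chr16:18255061-18255120, - strand): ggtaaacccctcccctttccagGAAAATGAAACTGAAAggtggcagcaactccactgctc
Ifit3 (GRCr8 chr1:241527257-241527316, + strand): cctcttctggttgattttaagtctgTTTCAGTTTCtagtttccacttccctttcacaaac
Irf7 (GRCr8 chr1:205800058-205800117, - strand): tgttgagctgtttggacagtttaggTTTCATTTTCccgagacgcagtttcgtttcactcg
Rsad2 (GRCr8 chr6:48788233-48788292, - strand): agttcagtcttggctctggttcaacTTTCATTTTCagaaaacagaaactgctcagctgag
Gbp2 (GRCr8 chr2:234005667-234005726, + strand): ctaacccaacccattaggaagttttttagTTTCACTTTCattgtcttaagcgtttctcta

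Irf1 and Irf8 had no response element core in the window, and each had matches of TTCNNNGAA, which are in capitals in their stretches.
Irf1 (GRCr8 chr10:38417767-38417826, + strand): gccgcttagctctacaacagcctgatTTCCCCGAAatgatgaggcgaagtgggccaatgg
Irf8 (GRCr8 chr19:65699088-65699147, + strand): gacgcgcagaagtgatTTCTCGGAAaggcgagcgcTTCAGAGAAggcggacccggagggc

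By role, the response element core was found in 4 of 5 Oas promoters, 3 of 3 in the group of Ifit3, Eif2ak2 and Isg20, 3 of 4 of the GTP-binding proteins and 0 of 4 receptor promoters. TTCNNNGAA was found in 3 of 5 transcription factor promoters, those of Irf1, Irf8 and Irf9. The letters of both motifs overlapped in 1 member, Bst2, by 3 bases. The 20 tested genes with the response element core had a median log2 fold change of 1.29 in the adenine model, and the 17 genes without it 1.77. In the UUO model these medians were 3.48 for 21 genes and 3.34 for 17.

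The 4 receptor chains rose in both models, and they were among the most even members from rat to rat. Ifnar1 FPKM was 9.18, 7.31 and 7.71 in control rats 1 to 3 and 42.4, 35.9 and 37.4 in adenine rats 1 to 3. The log2 fold change was 2.25 (SE 0.13, limma adjusted p = 4.66e-05). In the other table Ifnar1 FPKM was 12.6, 13.9 and 11.8 in sham rats 1 to 3 and 44.5, 39.2 and 42.9 in UUO rats 1 to 3. All 3 diseased rats lay above their reference group in both tables, with a log2 fold change after UUO of 1.72 (SE 0.10, limma adjusted p = 2.59e-05). Its partner chain Ifnar2 had FPKM of 5.05, 4.56 and 4.66 in control rats 1 to 3 and 19.4, 17.1 and 20.3 in adenine rats 1 to 3. After ligation Ifnar2 FPKM was 6.17, 6.58 and 6.21 in sham rats 1 to 3 and 29.4, 25.1 and 31.0 in UUO rats 1 to 3. The groups did not overlap, and the log2 fold changes were 1.97 (SE 0.12, limma adjusted p = 5.25e-05) and 2.15 (SE 0.11, limma adjusted p = 1.85e-05).

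Ifngr1, the ligand-binding chain for interferon gamma, was among the most abundant members, with FPKM of 25.8, 28.8 and 21.4 in control rats 1 to 3 and 77.8, 94.2 and 87.6 in adenine rats 1 to 3. Ifngr1 FPKM was 25.7, 29.8 and 29.3 in sham rats 1 to 3 and 129, 125 and 145 in UUO rats 1 to 3. Every adenine and UUO rat was above every reference rat, at log2 fold changes of 1.77 (SE 0.14, limma adjusted p = 0.000117) and 2.23 (SE 0.10, limma adjusted p = 1.32e-05). Ifngr2, the chain that passes the gamma signal on, had FPKM of 5.48, 4.82 and 6.32 in control rats 1 to 3 and 44.8, 35.1 and 39.2 in adenine rats 1 to 3. Ifngr2 FPKM was 6.35, 8.26 and 7.42 in sham rats 1 to 3 and 42.8, 35.3 and 38.3 in UUO rats 1 to 3. Ifngr2 had the largest log2 fold change of the 4 chains in both models, at 2.82 (SE 0.15, limma adjusted p = 3.53e-05) and 2.39 (SE 0.13, limma adjusted p = 2.15e-05). Within the adenine group the highest rat exceeded the lowest by a factor of 1.18 to 1.28 across the 4 chains, and within the UUO group by 1.14 to 1.24.

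The transcription factors parted into even and uneven genes. Irf1 FPKM was 8.09, 7.31 and 8.10 in control rats 1 to 3 and 36.7, 38.6 and 42.6 in adenine rats 1 to 3. After ligation Irf1 FPKM was 11.9, 9.37 and 7.86 in sham rats 1 to 3 and 93.7, 108 and 92.0 in UUO rats 1 to 3. No diseased rat overlapped a reference rat, and Irf1 rose by 2.31 (SE 0.11, limma adjusted p = 2.61e-05) and 3.34 (SE 0.16, limma adjusted p = 1.49e-05). Irf8, which directs macrophage and dendritic cell development, had FPKM of 5.64, 3.68 and 3.57 in control rats 1 to 3 and 39.1, 38.6 and 35.3 in adenine rats 1 to 3. Irf8 FPKM was 4.74, 5.38 and 4.48 in sham rats 1 to 3 and 62.8, 53.1 and 48.9 in UUO rats 1 to 3. All 6 diseased rats were far above the reference rats and close to each other, with log2 fold changes of 3.13 (SE 0.19, limma adjusted p = 5.19e-05) and 3.47 (SE 0.13, limma adjusted p = 9.65e-06).

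Irf7 FPKM was 9.80, 18.6 and 15.1 in control rats 1 to 3 and 14.7, 14.0 and 129.7 in adenine rats 1 to 3. Adenine rat 3 alone was high, and rats 1 and 2 lay inside the control range. Irf7 FPKM was 22.2, 12.1 and 16.8 in sham rats 1 to 3 and 332, 566 and 84.5 in UUO rats 1 to 3. All 3 UUO rats were above sham, with rat 3 the lowest. The log2 fold changes were 1.09 (SE 0.85, limma adjusted p = 0.301) and 3.92 (SE 0.66, limma adjusted p = 0.00176), and without rat 3 of the disease group 0.033 (SE 0.28, limma adjusted p = 0.929) and 4.71 (SE 0.33, limma adjusted p = 0.000226).

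Irf9, the DNA-binding part of the complex with Stat2, had FPKM of 7.07, 9.32 and 8.30 in control rats 1 to 3 and 22.4, 19.0 and 34.2 in adenine rats 1 to 3. Irf9 FPKM was 10.7, 8.69 and 8.18 in sham rats 1 to 3 and 78.0, 81.3 and 41.9 in UUO rats 1 to 3. The groups were apart in both tables, with log2 fold changes of 1.57 (SE 0.23, limma adjusted p = 0.00141) and 2.80 (SE 0.26, limma adjusted p = 0.000137). Stat2 FPKM was 9.67, 10.7 and 9.81 in control rats 1 to 3 and 18.5, 19.3 and 27.4 in adenine rats 1 to 3. Stat2 FPKM was 12.4, 12.2 and 11.2 in sham rats 1 to 3 and 75.8, 92.6 and 32.5 in UUO rats 1 to 3. Stat2 rose in every diseased rat, highest in adenine rat 3 and lowest in UUO rat 3, by 1.08 (SE 0.17, limma adjusted p = 0.00178) and 2.35 (SE 0.37, limma adjusted p = 0.0012).

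The plot of FPKM by rat sets even genes (Ifngr2, Irf8, Irf1, Psmb8) beside uneven ones.

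**Figure D2:**
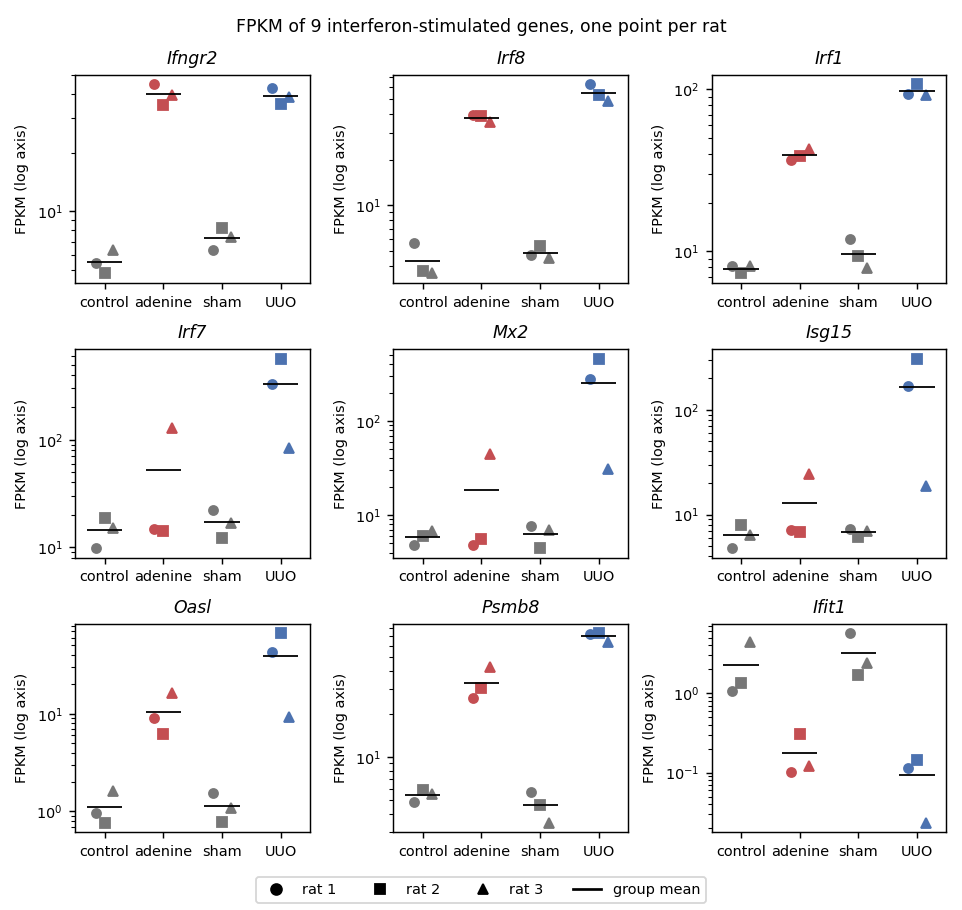
FPKM on a log axis of 9 interferon-stimulated genes in the 12 rats, arranged by group, with a symbol for each rat number and a line at the mean of 3 rats. Irf7, Mx2 and Isg15 of adenine rats 1 and 2 sit among the controls while rat 3 stands above, UUO rat 3 is the lowest UUO rat for these genes, and the 3 rats lie close together for Ifngr2, Irf8 and Irf1.

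The sensors Ifih1 (MDA5), Ddx58 (RIG-I) and Dhx58 (LGP2), which bind viral RNA, and Zbp1, which binds Z-form nucleic acid, passed as higher in 3 of 4 cases in the adenine model, 0 of them as DEGs, and in 4 of 4 after UUO, 3 of them as DEGs. Their log2 fold changes ran from 0.96 to 1.47 in the adenine model and from 1.62 to 4.03 in the UUO model, with Zbp1 at the top of the second range. The call of Zbp1 in the adenine model (limma adjusted p = 0.0329) was lost without any 1 of control rats 1, 2 or 3 or adenine rats 2 or 3 (adjusted p from 0.0601 to 0.0825). Median-of-ratios scaling also lost it (limma adjusted p = 0.0666), and it held in 6 of 15 alternative settings. Ddx58 after UUO (limma adjusted p = 0.0229) was lost without sham rat 2 or 3 or UUO rat 1 or 2 (adjusted p from 0.0533 to 0.0744), and with no filter, quantile normalization or median-of-ratios scaling (0.123, 0.104 and 0.135, the last at a log2 fold change of 1.01). Ifih1 did not pass in the adenine model (log2 fold change 0.96 (SE 0.37, limma adjusted p = 0.0618)) and passed without adenine rat 1 (limma adjusted p = 0.0318).

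The Oas genes make or resemble the 2′-5′ oligoadenylate synthetases, which switch on RNase L, and they include the largest log2 fold change among the members in the adenine model. Oas2 FPKM was 0.141, 0.239 and 0.453 in control rats 1 to 3 and 2.07, 1.43 and 12.3 in adenine rats 1 to 3. Oas2 FPKM was 1.01, 0.413 and 0.495 in sham rats 1 to 3 and 19.3, 35.2 and 3.56 in UUO rats 1 to 3. All diseased rats were above their reference rats, yet adenine rat 3 was 5.93 times the next adenine rat and UUO rat 3 was the lowest of its group by a factor of 5.43. In the adenine model Oas2 reached the FPKM minimum only through the adenine rats, so its lack of overlap there follows from the filter. Oas2 rose by 3.28 (SE 0.79, limma adjusted p = 0.0111) and 4.29 (SE 0.81, limma adjusted p = 0.00295), and without rat 3 of the disease group by 2.35 (SE 0.45, limma adjusted p = 0.00932) and 5.23 (SE 0.43, limma adjusted p = 0.000346). Oasl FPKM was 0.960, 0.764 and 1.61 in control rats 1 to 3 and 9.07, 6.17 and 16.3 in adenine rats 1 to 3. Oasl FPKM was 1.55, 0.783 and 1.09 in sham rats 1 to 3 and 42.4, 66.3 and 9.20 in UUO rats 1 to 3. Again no rats overlapped, and Oasl rose by 3.08 (SE 0.41, limma adjusted p = 0.000883) and 4.63 (SE 0.70, limma adjusted p = 0.00106). Oas1a and Oasl2 rose as well, with log2 fold changes of 1.80 and 1.41 after adenine and 3.82 and 3.63 after UUO. In the adenine model the call of Oas1a was lost without control rat 1 or 2 (limma adjusted p = 0.0923 and 0.0745) and that of Oasl2 without control rat 1 or 3 (0.0793 and 0.0792), and both were lost with median-of-ratios scaling (0.0552 and 0.0604). Oas3, tested in the UUO model alone, rose there by 2.89, and it reached the FPKM minimum only through the UUO rats. Oas genes are near-identical copies in part, so how reads were shared among them is uncertain.

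Ifit1 went against the rest. Ifit1 FPKM was 1.076, 1.353 and 4.464 in control rats 1 to 3 and 0.101, 0.304 and 0.120 in adenine rats 1 to 3. Ifit1 FPKM was 5.65, 1.70 and 2.37 in sham rats 1 to 3 and 0.113, 0.145 and 0.0233 in UUO rats 1 to 3. All 6 diseased rats were below all reference rats, at FPKM under 0.5 in every one of them, and the log2 fold changes were -2.92 (SE 0.58, limma adjusted p = 0.00472) and -3.99 (SE 0.51, limma adjusted p = 0.00049). Ifit1 reached the FPKM minimum only through the control and sham rats. The direction and the lack of overlap therefore follow from the filter and are no support for the fall. Ifit1 encodes a protein that binds viral RNA ends and has near-identical copies in rodents, so its FPKM depends on how reads were assigned. Without rat 3 of the disease group the log2 fold changes were -2.80 (SE 0.69, limma adjusted p = 0.0206) and -3.69 (SE 0.53, limma adjusted p = 0.00206). Ifit3 FPKM was 1.89, 2.43 and 2.66 in control rats 1 to 3 and 2.98, 3.49 and 14.2 in adenine rats 1 to 3. Ifit3 FPKM was 3.27, 2.00 and 2.28 in sham rats 1 to 3 and 79.3, 139.6 and 9.40 in UUO rats 1 to 3. Ifit3 was above the reference rats in all diseased rats, by most in adenine rat 3 and in UUO rats 1 and 2. Its log2 fold changes were 1.17 (SE 0.57, limma adjusted p = 0.119) and 4.21 (SE 0.93, limma adjusted p = 0.00585). Without rat 3 these were 0.47 (SE 0.23, limma adjusted p = 0.143) and 5.36 (SE 0.31, limma adjusted p = 0.000154). Ifit2, Eif2ak2 (PKR, which stops translation on double-stranded RNA) and Isg20 (an RNA exonuclease) did not pass in the adenine model, at log2 fold changes of 0.86, 0.37 and 0.75, although Isg20 passed without adenine rat 2 and Ifit2 with FPKM rescaled to 1 sum (limma adjusted p = 0.0483 and 0.0463). After UUO all of them rose, by 3.32, 2.30 and 3.48.

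The Mx GTPases, viperin (Rsad2), the nucleotide kinase Cmpk2 and tetherin (Bst2) block steps of viral growth. Mx2 FPKM was 4.79, 6.06 and 6.82 in control rats 1 to 3 and 4.76, 5.57 and 44.7 in adenine rats 1 to 3. Adenine rats 1 and 2 were at the control level and rat 3 was 8.02 times the higher of them. Mx2 FPKM was 7.73, 4.45 and 6.91 in sham rats 1 to 3 and 276, 458 and 31.1 in UUO rats 1 to 3. All UUO rats were above sham, and the lower of rats 1 and 2 was 8.89 times rat 3. Mx2 had the largest log2 fold change of all members after UUO, 4.65 (SE 0.94, limma adjusted p = 0.00392), and in the adenine model it was 0.85 (SE 0.81, limma adjusted p = 0.394), which turned to -0.18 (SE 0.21, limma adjusted p = 0.509) without adenine rat 3.

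Mx1 FPKM was 3.09, 4.54 and 3.25 in control rats 1 to 3 and 6.28, 7.01 and 23.6 in adenine rats 1 to 3. Mx1 FPKM was 5.93, 3.76 and 4.96 in sham rats 1 to 3 and 143, 263 and 23.0 in UUO rats 1 to 3. The order of the rats was as in Mx2, with log2 fold changes of 1.48 (SE 0.50, limma adjusted p = 0.0389) and 4.28 (SE 0.83, limma adjusted p = 0.00326). The adenine call of Mx1 was lost without control rat 1, 2 or 3 (limma adjusted p from 0.0573 to 0.101), and without adenine rat 3 the log2 fold change was 0.87 (SE 0.22, limma adjusted p = 0.0238). Median-of-ratios scaling also lost the adenine call of Mx1 (limma adjusted p = 0.0743), which held in 8 of 15 alternative settings. Rsad2 FPKM was 2.53, 2.81 and 3.91 in control rats 1 to 3 and 2.49, 3.97 and 7.08 in adenine rats 1 to 3. Rsad2 FPKM was 4.63, 2.76 and 2.67 in sham rats 1 to 3 and 58.3, 97.6 and 15.3 in UUO rats 1 to 3. Adenine rats overlapped controls and UUO rats did not overlap sham, at log2 fold changes of 0.43 (SE 0.38, limma adjusted p = 0.359) and 3.73 (SE 0.65, limma adjusted p = 0.002). With quantile normalization the adenine value of Rsad2 was -0.038.

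Bst2, a membrane protein that tethers virions, was one of the 3 most abundant members in control, adenine and sham kidneys, with FPKM of 31.1, 46.2 and 34.0 in control rats 1 to 3 and 42.1, 47.3 and 92.5 in adenine rats 1 to 3. Bst2 FPKM was 28.2, 26.0 and 24.3 in sham rats 1 to 3 and 250.5, 319 and 120.1 in UUO rats 1 to 3. In the adenine model it did not pass (log2 fold change 0.64 (SE 0.31, limma adjusted p = 0.122)), with rat 1 inside the control range, although it passed with FPKM rescaled to 1 sum (limma adjusted p = 0.042). After UUO it rose by 3.02 (SE 0.34, limma adjusted p = 0.000272). Cmpk2 rose by 1.14 and 3.36, and its adenine call was lost without control rat 1 or adenine rat 3 (limma adjusted p = 0.0566 and 0.0523). Median-of-ratios scaling also lost the adenine call of Cmpk2 (limma adjusted p = 0.0533), which held in 11 of 15 alternative settings.

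Isg15 is a ubiquitin-like protein, Herc6 is the rodent ligase that attaches it, Usp18 removes it and also damps receptor signalling, and Trim25 is a ligase of the RIG-I pathway. Isg15 FPKM was 4.77, 7.90 and 6.41 in control rats 1 to 3 and 7.05, 6.86 and 24.6 in adenine rats 1 to 3. Isg15 FPKM was 7.28, 6.05 and 6.93 in sham rats 1 to 3 and 168, 307 and 18.8 in UUO rats 1 to 3. Adenine rats 1 and 2 lay within the control range, and UUO rat 2 was 16.4 times UUO rat 3. The log2 fold changes of Isg15 were 0.76 (SE 0.50, limma adjusted p = 0.232) and 3.86 (SE 0.95, limma adjusted p = 0.00927), and without rat 3 they were 0.16 (SE 0.24, limma adjusted p = 0.614) and 5.05 (SE 0.26, limma adjusted p = 0.000126).

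Usp18 FPKM was 1.81, 3.21 and 3.86 in control rats 1 to 3 and 17.5, 11.96 and 30.5 in adenine rats 1 to 3. Usp18 FPKM was 4.81, 2.68 and 2.60 in sham rats 1 to 3 and 84.1, 143 and 11.6 in UUO rats 1 to 3. Here all adenine rats were above control, and Usp18 rose by 2.68 (SE 0.40, limma adjusted p = 0.00151) and 3.97 (SE 0.88, limma adjusted p = 0.00588). Herc6 FPKM was 4.35, 4.34 and 4.81 in control rats 1 to 3 and 2.08, 2.45 and 9.75 in adenine rats 1 to 3. Herc6 FPKM was 2.95, 1.13 and 1.96 in sham rats 1 to 3 and 28.2, 40.2 and 9.94 in UUO rats 1 to 3. Adenine rats 1 and 2 lay below the controls and rat 3 above them, while all UUO rats lay above sham. Herc6 had log2 fold changes of -0.28 (SE 0.55, limma adjusted p = 0.686) and 3.51 (SE 0.56, limma adjusted p = 0.00133). Without adenine rat 3 its value was -0.96 (SE 0.18, limma adjusted p = 0.00902), a lower call, and without adenine rat 1 or 2 the sign turned, to 0.13 and 0.011. Trim25 rose in both models, by 1.89 and 1.82.

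Parp9 and its partner ligase Dtx3l, with the ADP-ribosyl transferase Parp14, rose in all 3 adenine and all 3 UUO rats without overlap. Their log2 fold changes were 1.61, 2.32 and 2.29 after adenine and 3.35, 3.37 and 3.50 after UUO, and within a disease group the highest rat was 1.53 to 1.76 times the lowest.

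The interferon-inducible GTP-binding proteins, which attack the vacuoles of microbes inside cells, all rose in both models. Gbp2 FPKM was 4.11, 8.05 and 5.05 in control rats 1 to 3 and 23.2, 28.2 and 53.6 in adenine rats 1 to 3. Gbp2 FPKM was 9.33, 6.84 and 7.01 in sham rats 1 to 3 and 129, 172 and 96.4 in UUO rats 1 to 3. Groups did not overlap, and Gbp2 rose by 2.55 (SE 0.37, limma adjusted p = 0.00124) and 4.06 (SE 0.23, limma adjusted p = 2.28e-05). Gbp4, Gbp5 and Ifi47 rose by 1.57, 1.94 and 2.66 in the adenine model and by 3.61, 3.37 and 3.58 in the UUO model. In the UUO model Gbp4 reached the FPKM minimum only through the UUO rats. The adenine call of Gbp4 was lost with quantile normalization (log2 fold change 1.02, limma adjusted p = 0.0747). The Gbp genes have close copies, so their separate values are uncertain. Tap1, which carries peptides to MHC class I, and the immunoproteasome subunits Psmb8 and Psmb9 rose by 2.05, 2.56 and 1.59 in the adenine model and by 3.42, 3.92 and 3.59 in the UUO model, with no overlap of groups.

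Ifi27, a small protein of intracellular membranes, had the highest mean FPKM of all members in each of the 4 groups, with FPKM of 54.4, 89.4 and 84.8 in control rats 1 to 3 and 74.9, 81.4 and 246 in adenine rats 1 to 3. Ifi27 FPKM was 41.0, 35.2 and 43.0 in sham rats 1 to 3 and 475, 464 and 185 in UUO rats 1 to 3. Adenine rats 1 and 2 lay within the control range, and UUO rats were all above sham. The log2 fold change was 0.62 (SE 0.47, limma adjusted p = 0.288) and 3.12 (SE 0.36, limma adjusted p = 0.000306), and 0.069 (SE 0.24, limma adjusted p = 0.826) without adenine rat 3. Ifi35, Ifi44, Ifi44l and Xaf1 had log2 fold changes of 0.39, 0.86, 1.05 and 2.48 in the adenine model, where Ifi44l and Xaf1 passed, and of 1.83, 3.37, 3.08 and 3.92 in the UUO model, where all passed. The adenine call of Ifi44l was lost without any 1 of control rats 1, 2 and 3 or adenine rats 2 and 3 (limma adjusted p from 0.0554 to 0.107). Median-of-ratios scaling also lost it (limma adjusted p = 0.0956), and it held in 7 of 15 alternative settings. Ifi35 passed without control rat 2 and Ifi44 without adenine rat 2 (limma adjusted p = 0.0415 and 0.0402).

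Rat 3 of each disease group stood apart from the other two. Adenine rat 3 was the highest of its group in 41 of 46 tested members (89.1%), compared with 35.3% of all tested genes, and its median deviation from the group mean over the members was 0.67 on the log2 scale, compared with 0.029 over all tested genes. The members in which it was not highest were Ifnar1, Ifngr1, Ifngr2, Irf8 and Ifit1. UUO rat 3 was the lowest of its group in 43 of 47 members (91.5%), compared with 28.9% of all tested genes, at a median deviation of -0.91, and the 4 exceptions were the receptor chains. UUO rat 2 was the highest in 40 of 47. Both patterns held in 41 of the 47 genes. Among tested genes with at least 0.5 FPKM in all 3 adenine rats, adenine rat 3 exceeded the next rat by a factor above 2 in 17 of 45 members (37.8%) and in 0.578% of all 14176 such genes. Among those with at least 0.5 FPKM in all 3 UUO rats, UUO rat 3 was lower than the next rat by a factor above 2 in 27 of 46 members (58.7%) and in 1.22% of all 14278 such genes. The plot of rat deviations shows that control and sham rats differed less, with median deviations between -0.18 and 0.14.

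**Figure D3:**
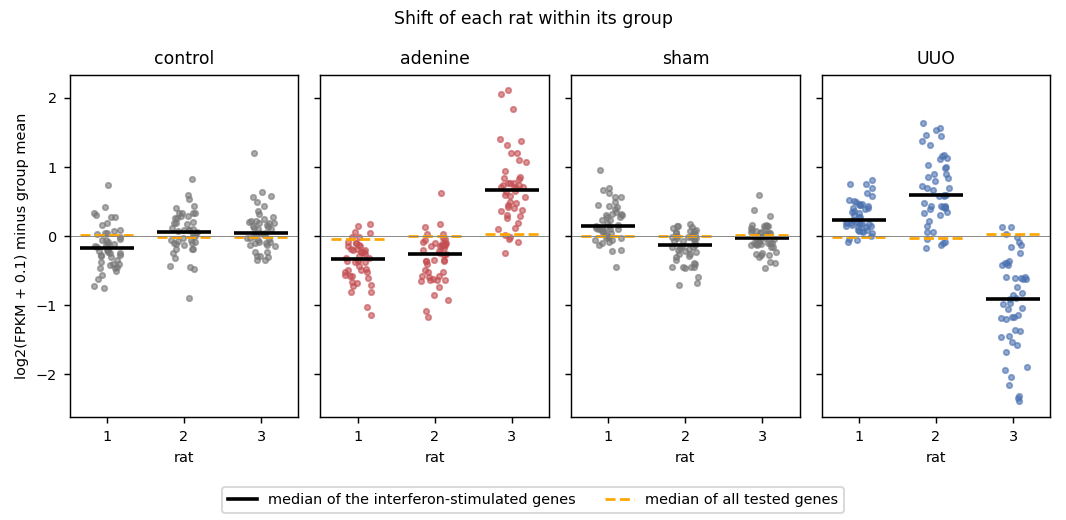
Deviation of each tested interferon-stimulated gene from its group mean in log2(FPKM + 0.1), one point per gene and rat, with solid lines at the median of these genes and dashed lines at the median of all tested genes. The solid lines are at 0.67 in adenine rat 3 and at -0.91 in UUO rat 3, while the dashed lines stay between -0.039 and 0.037.

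The unevenness is described here by promoter letters and pathway lists. Adenine rat 3 exceeded the next rat by a factor above 2 in 11 of the 21 genes whose promoter had the response element core and in 2 of the 17 without it, at median factors of 2.01 and 1.34. In UUO rat 3 the shortfall exceeded a factor of 2 in 14 of 21 and in 5 of 17, at median factors of 2.40 and 1.41. The 9 members without a promoter entry, among them the uneven Mx2, Oas2 and Isg15, were in neither count. The 17 included the 4 receptor chains, which were even from rat to rat. Other interferon-induced genes that are not members moved with the same rats. Of 45 tested, adenine rat 3 was highest in 40, and of 47 in the other table UUO rat 3 was lowest in 40. The shares of all tested genes were 35.3% and 28.9%. Of 17 MHC class I presentation genes, adenine rat 3 was highest in 17 and UUO rat 3 lowest in 14. The remaining lists were less one-sided. Of 12 sensors and adaptors upstream of interferon these counts were 6 and 4, and of 7 negative regulators 4 and 3. Among Jak1, Jak2, Tyk2 and Stat3, adenine rat 3 was highest in 1 of 4 and UUO rat 3 lowest in 1 of 4.

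Without adenine rat 3, 28 of the 46 members were higher (33.1% of all tested genes) and 2 lower, Ifit1 and Herc6, and the median log2 fold change was 1.14. The 28 were also called with all rats. The median of the Mx, viperin, Cmpk2 and tetherin group fell from 0.85 to 0.29, whereas that of the receptors was 2.11 with and 2.09 without this rat. Without UUO rat 3, 46 members were higher (50.8% of all tested genes) and the median was 3.73.

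Leukocyte markers moved with both models. All 10 macrophage markers were DEGs and higher in both (10.7% and 13.2% of all tested genes), and their summed FPKM was 214 to 273 in control, 7210 to 13659 in adenine, 238 to 364 in sham and 1961 to 2928 in UUO kidneys, with none at the lowest listed value in all rats. Within the groups the macrophage sum was 13659, 7210 and 10751 in adenine rats 1 to 3 and 2874, 2928 and 1961 in UUO rats 1 to 3. Lyz2 made up most of it, at 12329, 5964 and 9046 in adenine rats 1 to 3. Over the 10 markers the median deviation from the group mean was -0.19, -0.057 and 0.15 on the log2 scale in adenine rats 1 to 3, highest in rat 3, and 0.15, 0.16 and -0.26 in UUO rats 1 to 3, lowest in rat 3. Adenine rat 3 was the highest in 5 of the 10 markers, and UUO rat 3 the lowest in 6. All 8 T cell markers with an entry passed as higher in both models, as did 39.6% of all tested genes after adenine and 56.1% after UUO, and their sum was 75.8, 63.2 and 184 in UUO rats 1 to 3, so the rat with the lowest interferon genes had the highest T cell sum. Of the NK cell markers, 1 of 4 tested passed in the adenine model, a share below that of all tested genes (sums of 4.13 to 6.61 in control and 6.80 to 12.7 in adenine kidneys) and 5 of 6 in the UUO model (4.39 to 5.19 in sham and 40.2 to 61.2 in UUO kidneys). Of 3 tested plasmacytoid dendritic cell markers, 2 passed in the adenine model (15.2 to 22.4 in control and 15.7 to 23.3 in adenine kidneys) and 3 in the UUO model (5.96 to 8.33 and 15.8 to 28.0). Siglech, the defining one, was listed at 0 in all control rats and in adenine rat 1, and at the lowest value in all sham rats. It was at 0.0704 and 0.27 FPKM in adenine rats 2 and 3, highest in rat 3, and at 0.598, 0.696 and 0.253 in UUO rats 1 to 3, lowest in rat 3. Siglech fell short of the FPKM minimum and was not tested. Of the 3 tested markers, adenine rat 3 was highest in 3 and UUO rat 3 lowest in 2. Spib was at 3.31, 2.03 and 2.50 in UUO rats 1 to 3, lowest in rat 2. Il3ra, which made up most of the plasmacytoid sums, was at 20.2, 13.3 and 20.4 in adenine rats 1 to 3 and at 14.2, 18.3 and 21.3 in control rats 1 to 3. The neutrophil sum was 15.6, 36.7 and 6.52 in UUO rats 1 to 3 and 15.0, 25.5 and 25.6 in adenine rats 1 to 3. For dendritic cells it was 2293, 1582 and 1703 in UUO rats 1 to 3 and 1295, 1652 and 767 in adenine rats 1 to 3. Cd74 made up most of the dendritic cell sum, at 2263, 1556 and 1672 in UUO and 1188, 1603 and 682 in adenine rats. The sum for B and plasma cells was 38.4, 22.2 and 72.6, and 28.9, 18.9 and 48.2, in the same order. For NK cells it was 49.8, 40.2 and 61.2, and 6.80, 8.84 and 12.7. The leukocyte marker Ptprc was at 12.5, 8.91 and 19.1 FPKM, and at 32.2, 19.6 and 38.8. Markers of kidney tubules were present: all 8 proximal tubule and 6 distal markers were listed, at sums of 854 to 1809 and 1563 to 2335 in control kidneys. They were 61.1 to 334 and 194 to 424 in adenine kidneys, 1222 to 1720 and 2556 to 3212 in sham kidneys, and 127 to 323 and 117 to 259 in UUO kidneys. The part of these cell shares in the interferon values was not tested.

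The models were then compared, as the difference of the log2 fold changes (UUO minus adenine) over 13486 genes with a single entry tested in both tables. Of the 46 members compared, 26 rose more in the UUO model, against 21.7% of all genes, and 1, Ifnar1, rose more in the adenine model, against 5.25%. The difference was above 0 in 42 of 46, with a median of 1.53 where all genes had 0.28. It was at least 2 in 16 of the 26, against 1.82% of all genes. Leaving out 1 rat changed this count to between 7 and 24, the lowest without UUO rat 1 or 2, and that of all members higher in UUO to between 17 and 37, the lowest without UUO rat 1. Shares of all genes are not given for these fits. The scatter plot of the models shows the receptors, Irf8, Ddx58 and Trim25 near the line of equal change. Most antiviral genes lie above it, and Ifit1 lies below it.

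**Figure D4:**
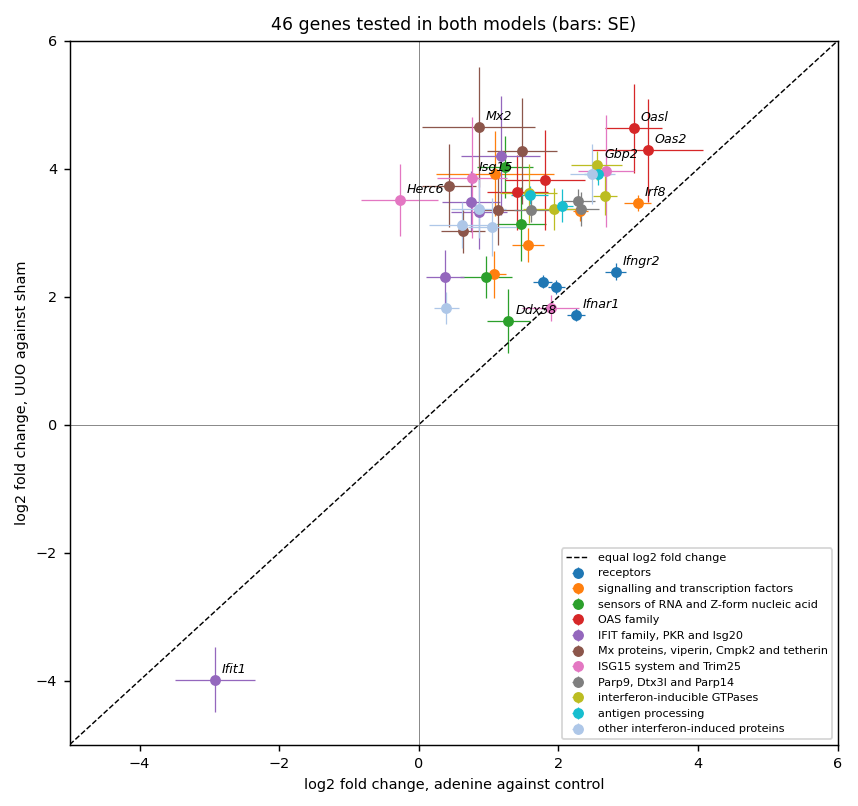
Log2 fold change of 46 interferon-stimulated genes after UUO (vertical) against that after adenine (horizontal), coloured by role, with bars of 1 SE and a dashed line of equal change. Most genes lie above the line, Mx2 at 0.85 and 4.65 among the farthest. Ifnar1, Ifngr2, Trim25 and Ifit1 lie below it, and Ifit1 is negative in both.

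The 4 largest differences that passed were in Mx2 at 3.80 (95% interval 1.12 to 6.47, t-test adjusted p = 0.0375), Herc6 at 3.79 (2.10 to 5.48, 0.00422), Rsad2 at 3.30 (1.68 to 4.92, 0.00705) and Isg15 at 3.10 (0.79 to 5.41, 0.047). In all 4, adenine rats 1 and 2 lay inside, near or below the control range. The call of Mx2 was lost with median-of-ratios scaling (t-test adjusted p = 0.0672), and that of Isg15 with that scaling and with Welch-Satterthwaite degrees of freedom (0.0899 and 0.0569). By role, all 5 of the Mx, viperin, Cmpk2 and tetherin group and all 3 antigen-processing genes rose more after UUO, as did 4 of 5 other interferon-induced proteins, 3 of 5 of the Ifit group and 3 of 5 transcription factors. Of the Oas genes 1 of 4 passed, with a median difference of 1.78. Irf8 did not pass at 0.33 (95% interval -0.16 to 0.82), nor did Ifnar2 at 0.18 (-0.17 to 0.53). Ifnar1 was at -0.53 (-0.88 to -0.18, t-test adjusted p = 0.0292). That call was lost without control rat 2 or 3, adenine rat 1 or 3, sham rat 2 or UUO rat 2.

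With rat 3 of both disease groups left out, 38 of 46 members rose more after UUO, against 15.5% of all genes, at a median of 2.56, 29 of them by at least 2, and Ifnar1 no longer passed (t-test adjusted p = 0.0718). These rats were left out because they held the highest adenine and the lowest UUO values, so larger differences without them follow from that choice and are no support for the difference. With median-of-ratios scaling 15 rose more after UUO and 2, Ifnar1 and Ifngr2, rose more after adenine. The shares of all genes with that scaling are not given here, so these counts cannot be set against them. Cause, duration and table differ together between the models and cannot be told apart here. The forest plot of the differences gives every member with and without these rats.

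**Figure D5:**
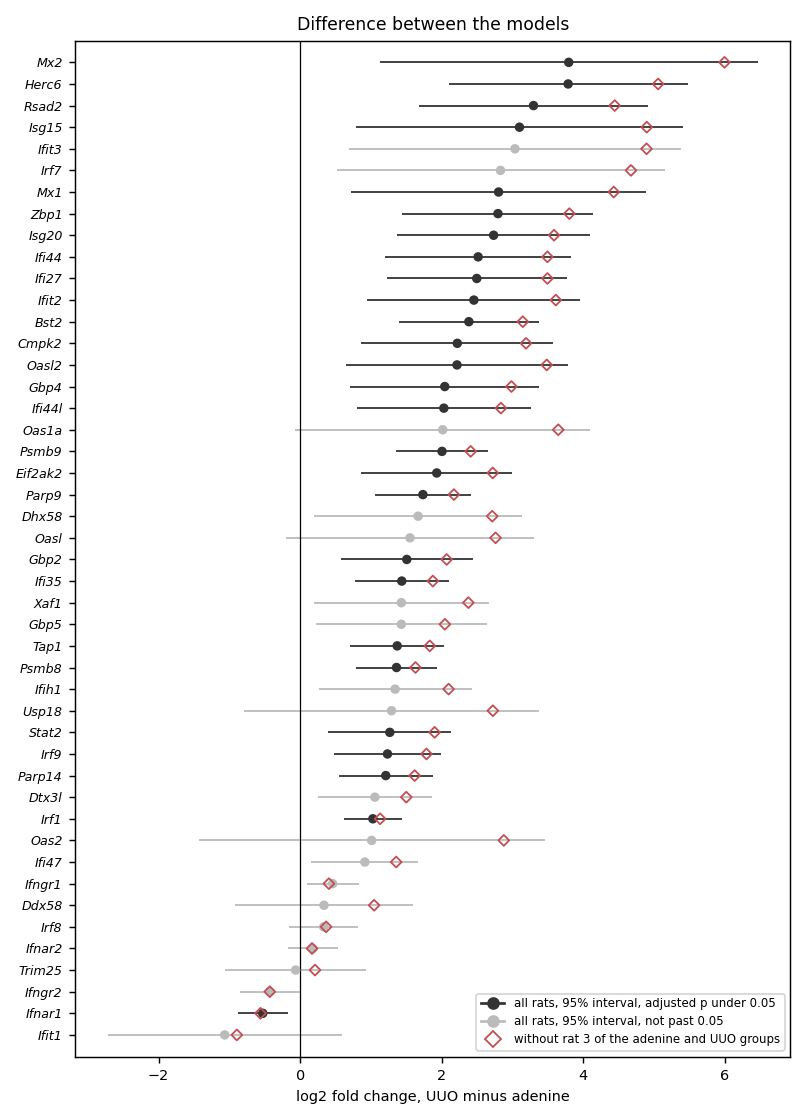
Difference of log2 fold changes (UUO minus adenine) of 46 interferon-stimulated genes, with 95% intervals from all rats in dark where the adjusted p was under 0.05 and light where not, and open diamonds for the value without rat 3 of the adenine and UUO groups. Mx2 heads the plot at 3.80, the receptors lie between -0.53 and 0.46, and Ifit1 is at -1.07.

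Upstream of these genes, transcripts of those interferons that had an entry were near the bottom of the scale. None of the ligand genes passed the FPKM minimum in either table, where 6 and 13 of 15 listed had an entry. In the control and adenine table these were Ifng, Ifna4, Ifna11 and the interleukin genes Il12a, Il12b and Il27. Most interferons, Ifnb1 among them, had no entry there, so the adenine model says little of their transcripts. Ifnb1, Ifna2, Ifna4, Ifna5, Ifna11, Ifnl1 and Ifnl3 were at the lowest listed value of 0.0001 in all 6 rats of the sham and UUO table. Ifng, the gene of interferon gamma, was listed at 0.0918, 0.0001 and 0.432 FPKM in UUO rats 1 to 3 and at 0.0001 in sham, and at 0 in all adenine rats. Il27, a subunit of interleukin 27, was at 0.0691, 0.178 and 0.103 in control, 0.57, 0.389 and 0.254 in adenine, 0.0441, 0.0697 and 0.0001 in sham and 0.13, 0.966 and 0.486 in UUO rats. Il12a, a subunit of interleukin 12, was at 0.221 to 0.348 in adenine, 0.227 to 0.742 in control, 0.431 to 0.783 in sham and 0.447 to 0.547 in UUO rats.

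The kinases Jak1, Jak2 and Tyk2 and the transcription factor Stat3 rose, 4 of 4 after adenine and 4 of 4 after UUO, 0 of them as DEGs. For these and the other lists of the pathway, the shares of all tested genes that passed were 39.6% higher and 19.9% lower after adenine and 56.1% higher and 14.4% lower after UUO. Jak1, Stat3 and Jak2 rose by 1.48, 1.44 and 1.20 in the adenine model, and Jak2, Stat3 and Tyk2 by 1.46, 1.35 and 1.26 in the UUO model. Of the negative regulators 6 of 7 and 7 of 7 rose. Socs3, which blocks Janus kinases and is induced by many cytokines, had FPKM of 0.683, 0.633 and 1.297 in control rats and 30.8, 31.4 and 32.3 in adenine rats. It rose by 5.09 there and by 4.55 after UUO, with the 3 rats of each disease group close together. Ptpn1 and Ptpn6, phosphatases of receptor signalling, rose by 2.42 and 2.18 in the adenine model, and Socs1 and Ptpn1 by 1.80 and 1.48 in the UUO model.

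Of 12 tested sensors and adaptors that lead to interferon, 10 rose and 2 fell in the adenine model, and 11 rose and 1 fell in the UUO model. Mavs, the mitochondrial adaptor of the RNA sensors, fell by 0.84 and 0.48 on the log2 scale, and Irf3 fell by 0.48 in the adenine model and rose by 0.59 in the UUO model. The largest rises were in the endosomal RNA receptor Tlr8, in Sting1, the adaptor of DNA sensing, and in Irf5 after adenine (5.28, 3.80 and 3.50), and in the DNA sensor Aim2, in Tlr7 and in Tmem173, an older symbol of Sting1, after UUO (3.22, 3.04 and 2.92). Of other interferon-induced genes 38 of 45 rose and 1 fell in the adenine model and 46 of 47 rose and 1 fell in the UUO model. Lap3, an aminopeptidase, was the one that fell, by 0.72 and 0.61. Mnda, Ifitm1 and Cd274 (PD-L1) rose most after adenine, by 4.27, 3.70 and 3.08, and Apol9a, Rtp4 and Slfn13 after UUO, by 4.72, 4.26 and 4.13. Of 17 MHC class I presentation genes 13 rose after adenine and 16 after UUO. The largest log2 fold changes were those of RT1-M3-1, RT1-CE10 and RT1-CE5 after adenine (2.36, 2.11 and 2.07, where RT1-CE10 did not pass, limma adjusted p = 0.053) and RT1-S3, RT1-T24-4 and Psmb10 after UUO (3.86, 3.51 and 3.31), with RT1 genes uncertain as close copies.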

How the data were processed

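Kidney RNA of 12 rats in 4 groups of 3 was analysed, each rat assigned by its label. The authors deposited FPKM per gene in 2 tables, one of the control and adenine groups and one of the sham and UUO groups, after trimming, mapping, transcript assembly and scaling by length and mapped fragments. Their processing notes name cutadapt 1.9, HISAT2 2.0.4 and StringTie 1.3.4d, and also edgeR and DESeq2, which were not used here because FPKM is no count. The genome build and annotation were not given in the sources used here. The depth behind each value is unknown. Low FPKM values were examined for relative depth, and at most 0.991% of genes in the first table and 5.98% in the second shared 1 ratio, too few to recover it. The lowest listed value was 0 in the first table, held by 11.8% to 15.6% of a rat's entries, and 0.0001 in the second, held by 41.7% to 45.4%.

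The members were looked up by symbol. Their choice, the role, pathway and cell lists, and the tests were made with earlier results of these data known. Each table was fitted with limma 3.58.1 (lmFit, eBayes with a trend) in R 4.3.3 on log2(FPKM + 0.1) for the 15029 and 15043 entries that reached 0.5 FPKM in 3 or more of 6 rats, with Benjamini-Hochberg adjustment. The difference between the models was divided by the root of the summed squared standard errors and tested as t with the degrees of freedom of both fits added. Python 3.11.15 (scipy 1.17.1, pandas 2.3.3, numpy 2.4.6) served for the other steps. With 3 rats against 3, an exact permutation test of 1 gene cannot give a two-sided p below 0.1, so none was run.

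Values of every rat are given for the 6 members with the largest absolute log2 fold change in each model, those called lower, the 4 with the largest differences that passed, the receptors, Stat2 and the Irf genes, and the 3 with the highest mean FPKM in a group. Of the pathway lists, ligands above 0.5 FPKM in any rat and up to 3 genes a list with the largest absolute log2 fold change are named, and 1 gene of these lists is not reported here. Ligands at the lowest value, Ifng, Mavs, Irf3 and Lap3, and other members with single values, were named after their values were seen.

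Simulated tables with 200 changed genes each served as a test of the fits. Every planted change was larger than the DEG threshold, and each gene had the same spread in both groups. Far more genes passed in the real tables than were changed in the simulated ones. The simulated adenine table, of 13908 tested genes, gave back 184 (92%) with 0 false calls, and the simulated UUO table, of 13793, gave back 182 (91%) with 9. With nothing changed, 0 were called. The test of the difference called 325 of 334 changed genes (97.3%). It also called 37 unchanged genes among the 12668 tested, or 28 with Welch-Satterthwaite degrees of freedom. With either choice, unchanged genes made up a larger share of the calls than the adjusted p threshold allows. The test of the difference was therefore too liberal in this simulation. Whether these rates hold for smaller changes, for tables where most genes pass, or for members with uneven disease groups, such as Isg15, was not tested.

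Each choice was varied alone: the pseudocount (1 or 0.01), the filter (none, or 1 FPKM), the scaling (median-of-ratios, quantile, or 1 sum for all rats), the trend (left out), the replicate number (as a block) and the rats (each left out in turn). Welch-Satterthwaite degrees of freedom and leaving out rat 3 of both disease groups were added after seeing the data. Promoter sequences are RefSeq on GRCr8.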

Additional observations from a re-analysis of the deposited data

Results flagged for a closer look

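The log2 fold changes of 27 of the 46 members compared differed between the adenine and UUO models by a t-test of the difference itself (adjusted p under 0.05 over 13486 genes). Differences of at least 2 in favour of UUO were those of Mx2 3.80, Herc6 3.79, Rsad2 3.30, Isg15 3.10, Mx1 2.80, Zbp1 2.80, Isg20 2.73, Ifi44 2.52, Ifi27 2.50, Ifit2 2.46, Bst2 2.38, Cmpk2 2.22, Oasl2 2.22, Gbp4 2.04, Ifi44l 2.03 and Psmb9 2.00, on the log2 scale. Smaller ones were those of Eif2ak2 1.93, Parp9 1.73, Gbp2 1.51, Ifi35 1.44, Tap1 1.37, Psmb8 1.36, Stat2 1.27, Irf9 1.23, Parp14 1.21 and Irf1 1.03. The only gene past the test in the other direction was Ifnar1, at -0.528. The t-test adjusted p ran from 0.000756 for Psmb9 to 0.047 for Isg15. With median-of-ratios scaling 15 members were higher in UUO and 2 in adenine, and the genes no longer past the test included Mx2, Isg15, Mx1 and Oasl2 (t-test adjusted p = 0.0672, 0.0899, 0.0921 and 0.0895). Shares of all genes with that scaling are not given here.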

How the results depend on the processing

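Of the 32 members called in the adenine model and the 47 in the UUO model, 25 and 45 kept direction and call in all 15 alternative settings of their model, or 14 for Oas3, which was not tested with a minimum of 1 FPKM. The calls lost in at least 1 of them were those of Mx1, Oas1a, Oasl2, Ifi44l, Cmpk2, Zbp1 and Gbp4 (the last with quantile normalization, limma adjusted p = 0.0747) in the adenine model, and of Ddx58 and Isg15 (the last with no filter, limma adjusted p = 0.0682) in the UUO model. With a pseudocount of 1 the members lower as DEGs numbered 0 in both models, where Ifit1 had log2 fold changes of -1.35 and -1.85. Values that changed sign, all in the adenine model, were those of Mx2 without adenine rat 3 (-0.18, the lowest of a range up to 1.43 with 1 rat left out), Rsad2 with quantile normalization (-0.038) and Herc6 without adenine rat 1 (0.13) or 2 (0.011), the range being -0.96 to 0.13. With 1 rat left out, the adenine model had 13 to 17 members higher as DEGs and 1 lower, and by adjusted p 25 to 32 higher and 1 to 2 lower, with 2 without adenine rat 3. The UUO model had 42 to 45 and 1, and 45 to 46 and 1. The members that rose more after UUO numbered 17 to 37, of which 7 to 24 by at least 2 (10 without control rat 2, 9 without control rat 3, adenine rat 1 or 2 or sham rat 2, 7 without UUO rat 1 or 2), and 0 to 1 rose more after adenine. The count with a difference of at least 2 was 9 with no filter, 8 with median-of-ratios scaling, 8 with quantile normalization and 29 without rat 3 of both disease groups. The count higher in UUO was 38 without those rats, 15 with median-of-ratios scaling and 24 with Welch-Satterthwaite degrees of freedom. Apart from the shares given above for fits without rat 3, shares of all genes are not given for the alternative settings. Counts in those settings therefore cannot be compared with all genes. The count higher in adenine was 2 with median-of-ratios scaling, 2 with quantile normalization, 0 without the trend and 0 without rat 3 of both disease groups. The cause of these changes was not tested. A block for the replicate number gave 30 members higher and 1 lower in the adenine model (Zbp1 lost, limma adjusted p = 0.0561), 46 and 1 in the UUO model, 14 and 1 and 42 and 1 as DEGs, and differences of 30 higher in UUO, 17 of them by at least 2, and 1 in adenine. Deviations of rats with the same number correlated at -0.123 to 0.105 across genes, so the numbers were not taken as pairs. Without read counts, what depth limits is unknown.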
